A study of Mus musculus with 12 samples.

Results

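The 10 genes described here, Csf1r, Spi1, Trem2, C1qa, C1qb, Fcgr1, Itgam, Mertk, Cd68 and Cd14, are used as markers of macrophages and monocytes. Their chromatin was read from peak lists of aortic endothelial cells (MAECs) of mice, the cells that line the vessel wall. The genes were put together with results of these lists known, and their regions were selected on the presence of called peaks in the same 4 lists, so every count below is a description and not a test of the diets. Peaks of all lists that overlapped by at least 1 bp were merged into 48003 regions, and a region belonged to the protein-coding gene with the nearest span, up to 100 kb away. The 10 genes, of 21631 in all, held 27 regions of the 41492 that could be assigned. All 10 genes had at least 1 region, 20 of the 27 regions lay within or touched the gene, and the farthest lay 19597 bp away.

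The assay was ATAC-seq, which uses a transposase to insert sequencing adapters where DNA is accessible. The 8 ATAC-seq samples formed 4 groups of 2, and each group was represented by 1 peak list without replicates. In the group names, M was taken to stand for mothers and O for offspring, with the diet, CD or WD, before each letter; sample and list titles, which give 2 diets, were read as mothers first, and WDM-CDO and CDM-WDO rest on that reading. The title of the series speaks of a maternal high-fat diet. CDM-CDO thus had CD in mothers and offspring, WDM-CDO had WD in the mothers and CD in the offspring, CDM-WDO had CD in the mothers and WD in the offspring, and WDM-WDO had WD in both. The WDO offspring had received WD anew for 4 weeks before their cells were taken. The sources used here do not give strain, genotype, sex or how the cells were sorted. The peak names carry a mark read as 8 weeks in both CDO lists and 12 weeks in both WDO lists, so the diet of the offspring and this difference cannot be told apart. The lists held 22178 (CDM-CDO), 28319 (WDM-CDO), 18962 (CDM-WDO) and 26275 (WDM-WDO) peaks, with a median of 36, 38, 31 and 39 reads at the summit. The endothelial label was checked with 20 endothelial genes, of which 16, 18, 16 and 15 had a region in the 4 lists in that order. Of 12 pan-leukocyte genes, 12, 12, 11 and 12 had one. The share of all genes with a region in each list is not given here, so these counts alone cannot settle the label. Cdh5 and Pecam1, which encode junction proteins of the endothelium, had a region in every list but none within 1 kb of a gene end. Ptprc, which encodes the common leukocyte antigen CD45, had a peak at a gene end in every list. Other genes checked went the other way. The endothelial genes Kdr, Tie1 and Flt1 had a peak at a gene end in every list, and the pan-leukocyte gene Cd52 in none. In such bulk material, more cells of a kind and more open chromatin per cell cannot be told apart.

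Macrophages arise from monocytes or from resident precursors and depend on signalling through Csf1r, the receptor for the growth factors CSF1 and IL-34. Their identity is set by the transcription factor PU.1, encoded by Spi1, which binds a purine-rich site at many promoters and enhancers of myeloid genes and opens chromatin there. In the artery wall, macrophages take up lipid, clear dying cells and are a main cell type of atherosclerotic plaques.

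Reference promoters are shown for the 6 members that had a matched reference promoter. Called peaks covered all or part of these stretches. A peak reached into the stretch in the WDM-WDO list alone for 4 genes, Trem2, C1qb, Fcgr1 and Itgam, and in all 4 lists for Mertk and Cd68. Each is the run of 250 bases before the start of the gene, 5′ to 3′ on the strand of the gene, from RefSeq (GRCm38.p6). Capitals mark the PU.1 letters GAGGAAG and the AP-1 letters TGANTCA, found on either strand; GAGGAAG reads CTTCCTC on the other strand. AP-1 is a family of stress-responsive factors that is also active in macrophages.
Trem2 (chr17:48346151-48346400, plus strand): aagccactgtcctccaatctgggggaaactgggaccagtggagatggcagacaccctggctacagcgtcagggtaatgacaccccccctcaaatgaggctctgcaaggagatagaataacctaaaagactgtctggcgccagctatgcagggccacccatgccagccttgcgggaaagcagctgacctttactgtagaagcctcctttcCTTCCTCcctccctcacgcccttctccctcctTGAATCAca
C1qb (chr4:136886201-136886450, minus strand): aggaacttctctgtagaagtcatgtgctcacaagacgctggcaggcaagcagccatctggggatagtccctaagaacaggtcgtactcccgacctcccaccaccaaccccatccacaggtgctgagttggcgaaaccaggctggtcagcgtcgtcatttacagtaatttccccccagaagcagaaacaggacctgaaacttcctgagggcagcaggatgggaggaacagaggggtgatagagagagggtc
Fcgr1 (chr3:96293970-96294219, minus strand): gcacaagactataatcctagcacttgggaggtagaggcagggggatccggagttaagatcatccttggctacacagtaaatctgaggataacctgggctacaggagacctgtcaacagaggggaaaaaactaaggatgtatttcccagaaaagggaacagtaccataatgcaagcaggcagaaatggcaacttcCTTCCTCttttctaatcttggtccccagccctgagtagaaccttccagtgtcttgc
Itgam (chr7:128062390-128062639, plus strand): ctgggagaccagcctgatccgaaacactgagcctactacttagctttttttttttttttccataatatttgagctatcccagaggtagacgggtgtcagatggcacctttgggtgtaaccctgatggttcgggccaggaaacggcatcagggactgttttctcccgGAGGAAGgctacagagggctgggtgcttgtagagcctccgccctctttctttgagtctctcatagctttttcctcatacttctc
Cd68 (chr11:69666171-69666420, minus strand): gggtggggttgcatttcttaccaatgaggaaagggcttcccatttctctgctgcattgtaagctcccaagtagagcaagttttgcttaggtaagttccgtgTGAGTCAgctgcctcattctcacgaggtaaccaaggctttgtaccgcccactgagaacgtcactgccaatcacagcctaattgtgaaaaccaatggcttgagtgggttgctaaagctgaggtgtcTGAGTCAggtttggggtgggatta
Mertk (chr2:128698665-128698914, plus strand): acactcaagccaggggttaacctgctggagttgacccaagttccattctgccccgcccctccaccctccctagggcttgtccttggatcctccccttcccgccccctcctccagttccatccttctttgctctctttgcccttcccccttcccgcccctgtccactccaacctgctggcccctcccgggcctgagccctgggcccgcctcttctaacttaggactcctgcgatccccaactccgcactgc

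The promoter table matched these 6 of the 10 members. Csf1r, Spi1, C1qa and Cd14 were not matched, so their ends are named by coordinate. Counted back from the gene start, GAGGAAG lay at bases 41 to 35 in Trem2 and 56 to 50 in Fcgr1, both on the opposite strand, and at bases 84 to 78 in Itgam on the gene's own strand. These 3 of 6 promoters compare with 10.4% of 21045 promoters of the same length. TGANTCA was found in Trem2 at bases 9 to 3, and in Cd68 at bases 149 to 143 and 24 to 18; 6.17% of all promoters held it. The ETS core GGAA, which every GAGGAAG contains, was found in all 6 and in 93.1% of all promoters. The C/EBP letters TTGCNNAA occurred in Cd68 (9.18% of all promoters). The IRF element (2.98%), the RUNX letters TGTGGT (12.2%) and the TATA box TATAAA (11.7%) occurred in none of the 6. A match is a run of letters in the reference and not a measured binding site, and 6 promoters are few.

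Of the 27 regions, 24 were called in WDM-WDO, against 11 in CDM-CDO, 11 in WDM-CDO and 8 in CDM-WDO. Over all assigned regions these shares were 58.5%, 49.0%, 62.5% and 39.8%, so the overall number of peaks did not follow the same order: WDM-CDO had the longest list. In WDM-WDO alone, 14 of the 27 regions (51.9%) were called, spread over 8 of the 10 genes, against 17.8% of all regions. The count was 7 with only peaks of −log10 q of at least 5 and 8 with all lists limited to the length of the shortest. A further 7 were called in all 4 lists (24.6% of all regions). The CDM-CDO list had 1 region of its own, in C1qa (8.08% of all regions), and 0 were called in WDM-CDO alone (16.1% of all regions) or in CDM-WDO alone (8.33%). The map of reads by region and list shows the WDM-WDO column filled for all but 3 regions.

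**Figure D1:**
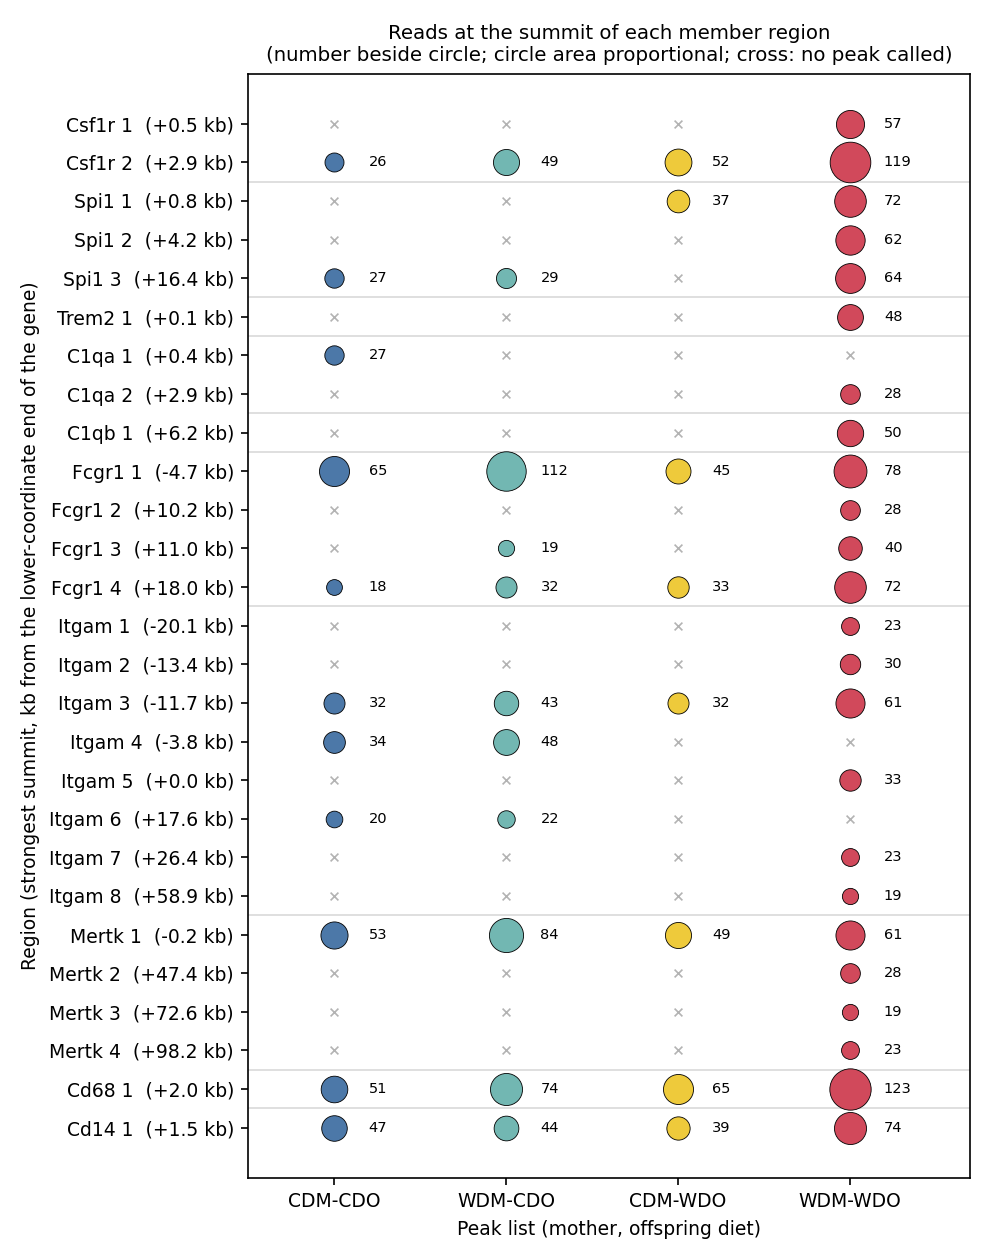
Reads at the peak summit for each of the 27 regions (vertical, by gene and region number) in the 4 lists (horizontal); empty cells had no called peak. WDM-WDO holds 24 regions and the other lists 8 to 11.

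At gene ends, all 10 members had a peak in WDM-WDO, and 4 had one in each of the other lists. Such a gene-end peak overlaps the window of 1 kb on both sides of an end of the gene, and the share of all genes with one was 47.6% in WDM-WDO, 48.1% in CDM-CDO, 51.2% in WDM-CDO and 40.2% in CDM-WDO. The 4 members were not the same 4 in each list. Mertk, Cd68 and Cd14 had a gene-end peak in all 4 lists (37.0% of all genes), while C1qa was the fourth in CDM-CDO, Fcgr1 in WDM-CDO and Spi1 in CDM-WDO. Csf1r, Trem2, C1qb and Itgam had one in WDM-WDO alone, a pattern found in 2.08% of all genes.

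Among the growth factor receptor and transcription factor genes, Csf1r had 2 regions close to its lower-coordinate end. Csf1r region 1 (chr18:61105600-61106789), at that end, was called in WDM-WDO alone, with 57 reads at the summit over a local background of 24.0 and a −log10 q of 5.92. Csf1r region 2 (chr18:61107608-61108977), inside the gene, was called in all lists. Its highest summit held 26 reads in CDM-CDO, 49 in WDM-CDO and 52 in CDM-WDO, against 119 in WDM-WDO. The CDM-CDO call was split into 2 short peaks with −log10 q of 1.87 and 2.11, above only 2.67% and 5.92% of that list's peaks. The 95% Poisson interval of the WDM-WDO value, 98.6 to 142, lay above those of CDM-WDO (38.8 to 68.2) and WDM-CDO (36.3 to 64.8), before any allowance for depth; such intervals cover counting error only.

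Spi1 had 3 regions, all within or touching the gene. Spi1 region 1 (chr2:91082030-91083491), at the lower-coordinate end, was called in both WDO lists, with 37 reads in CDM-WDO and 72 in WDM-WDO. Spi1 region 2 (chr2:91086258-91086659), inside the gene, was called with 62 reads in WDM-WDO alone. Spi1 region 3 (chr2:91096553-91099007) was called with 27 reads in CDM-CDO, 29 in WDM-CDO and 64 in WDM-WDO. Position differed within this last region. Counted from the lower-coordinate end of the gene, the summit lay at 14633 bp in CDM-CDO and 14366 bp in WDM-CDO, but at 16380 bp in WDM-WDO, where the peak was 2303 bp wide against 295 and 618 bp. Both CDO peaks ended before the WDM-WDO summit.

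Trem2 encodes a lipid-sensing receptor of macrophages and microglia, and it had a single region (chr17:48346351-48347798). This region was called in WDM-WDO alone, with 48 reads, a −log10 q of 11.1 and its summit 74 bp inside the gene start. The subunit genes of complement C1q, C1qa and C1qb, lie near each other on chromosome 4. The only region of C1qb (chr4:136885690-136886465) was called in WDM-WDO alone, with 50 reads and a −log10 q of 10.1, and its summit lay 139 bp before the start. C1qa had a weak peak in each of 2 lists, at opposite ends of the gene. C1qa region 1 (chr4:136896271-136896564), near the lower-coordinate end, was called in CDM-CDO with 27 reads and a −log10 q of 2.92. C1qa region 2 (chr4:136898606-136898862), at the upper-coordinate end, was called in WDM-WDO with 28 reads and a −log10 q of 2.15. WDM-CDO and CDM-WDO had no C1qa region.

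Fcgr1, which encodes the high-affinity IgG receptor CD64, had 4 regions with different patterns. Fcgr1 region 3 (chr3:96293310-96294051) was called with 19 reads in WDM-CDO and 40 in WDM-WDO. Its WDM-WDO peak covered the gene start, while its WDM-CDO peak ended inside the gene, just short of the start. Fcgr1 region 2 (chr3:96293015-96293288), next to region 3 inside the gene, was called with 28 reads in WDM-WDO alone. Fcgr1 region 4 (chr3:96300323-96301775) lay upstream, its WDM-WDO summit 6980 bp before the start. It held 18 reads in CDM-CDO, 32 in WDM-CDO and 33 in CDM-WDO, against 72 in WDM-WDO. Fcgr1 region 1 (chr3:96277561-96278559), 4350 bp beyond the other end, held 65, 112, 45 and 78 reads in the same order. WDM-WDO was therefore the highest list at region 4 and WDM-CDO at region 1, both near the same gene.

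Itgam, the gene of the myeloid integrin subunit CD11b, had the most regions of the 10 genes, 8. Of these, 5 were called in WDM-WDO alone: Itgam region 1 (23 reads), region 2 (30 reads), region 5 (33 reads), region 7 (23 reads) and region 8 (19 reads). Region 5 (chr7:128062506-128063065) covered the start of the gene, with a −log10 q of 3.42. Itgam region 3 (chr7:128050462-128051311), upstream of the gene, was called in every list, with 61 reads in WDM-WDO, 43 in WDM-CDO and 32 in both CDM-CDO and CDM-WDO. A call in both CDO lists and neither WDO list was found for 2 member regions, both at Itgam; 6.26% of all regions had this pattern. Itgam region 4 (chr7:128058329-128058944) was called with 34 reads in CDM-CDO and 48 in WDM-CDO and in neither WDO list. Itgam region 6 (chr7:128080004-128080811), inside the gene, likewise had 20 reads in CDM-CDO, 22 in WDM-CDO and no call in the WDO lists.

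Mertk encodes a receptor by which macrophages engulf dying cells, and its product is also made by other cells. Mertk region 1 (chr2:128698211-128699539), at the gene start, was called in every list. Before any allowance for depth, WDM-CDO had 84 reads and WDM-WDO 61, while CDM-CDO had 53 and CDM-WDO 49. That order did not hold after the scaling described below, which evens out heights at strong shared regions and not depth alone. WDM-WDO was then the lowest list, at 48.9 against 56.5 for CDM-WDO, and WDM-CDO had 55.9 against 52.9 for CDM-CDO. The other 3 Mertk regions lay inside the gene and were called in WDM-WDO alone, with 28, 19 and 23 reads, all below that list's median of 39. The start of Mertk was thus open in all 4 lists, and the regions seen in WDM-WDO alone had low summits.

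Cd68 encodes a lysosomal glycoprotein of macrophages, and Cd14 a co-receptor for bacterial lipopolysaccharide. Each had 1 region, called in all lists. The Cd68 region (chr11:69665672-69666504) held 123 reads in WDM-WDO, and WDM-CDO had 74, CDM-WDO 65 and CDM-CDO 51, and its 4 summits lay within 20 bp of one another, 76 bp before the start in WDM-WDO. It lies 432 bp from the end of Eif4a1, a translation initiation factor gene, so it also counted as a gene-end peak of that gene. The Cd14 region (chr18:36725540-36727436) held 74, 44, 39 and 47 reads in the same order. At both, WDM-WDO was the highest list in reads.

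The diet of the mothers was compared within each diet of the offspring. With CDO offspring, 12 member regions were in either list. Of these, 1 was in WDM-CDO only (8.33%, 95% Wilson interval 1.49 to 35.4), against 32.3% of all regions, and 1 was in CDM-CDO only, against 13.7%. They were Fcgr1 region 3 and C1qa region 1, which were also the gene-end differences (4.98% and 1.91% of all genes). With WDO offspring, 24 member regions were in either list. Here 16 (66.7%, interval 46.7 to 82.0) were in WDM-WDO only, against 42.8% of all regions, and 0 (upper limit 13.8%) were in CDM-WDO only, against 15.9%. Intervals here and in the comparisons below cover counting error over regions only. Regions of 1 gene are not independent, and Itgam held 5 of the 16 and Mertk 3. With only peaks of −log10 q of at least 5, the count was 7 of 14, against 40.4% of all regions. With lists of equal length it was 9 of 17, against 29.2%. At gene ends, 6 members had a peak with WDM mothers that CDM-WDO lacked (9.57% of all genes), and 0 had the reverse (2.14%). These 6 were Csf1r, Trem2, C1qa, C1qb, Fcgr1 and Itgam. Whether the contrast with WDO offspring differs from that with CDO offspring has no test here, because no group has a spread between lists.

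The diet of the offspring was compared in the same way. With CDM mothers, 1 of 12 member regions (8.33%) was in CDM-WDO only, against 21.4% of all regions, and 4 (33.3%, interval 13.8 to 60.9) were in CDM-CDO only, against 36.2%. The region in CDM-WDO only was Spi1 region 1, and the 4 were Spi1 region 3, C1qa region 1 and Itgam regions 4 and 6. With WDM mothers, 15 of 26 (57.7%, interval 38.9 to 74.5) were in WDM-WDO only, against 24.9%, and 2 (7.69%, interval 2.14 to 24.1) were in WDM-CDO only, against 29.7%. The 4 comparisons share lists with one another, so the counts for WDM-WDO are not independent of each other.

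**Figure D2:**
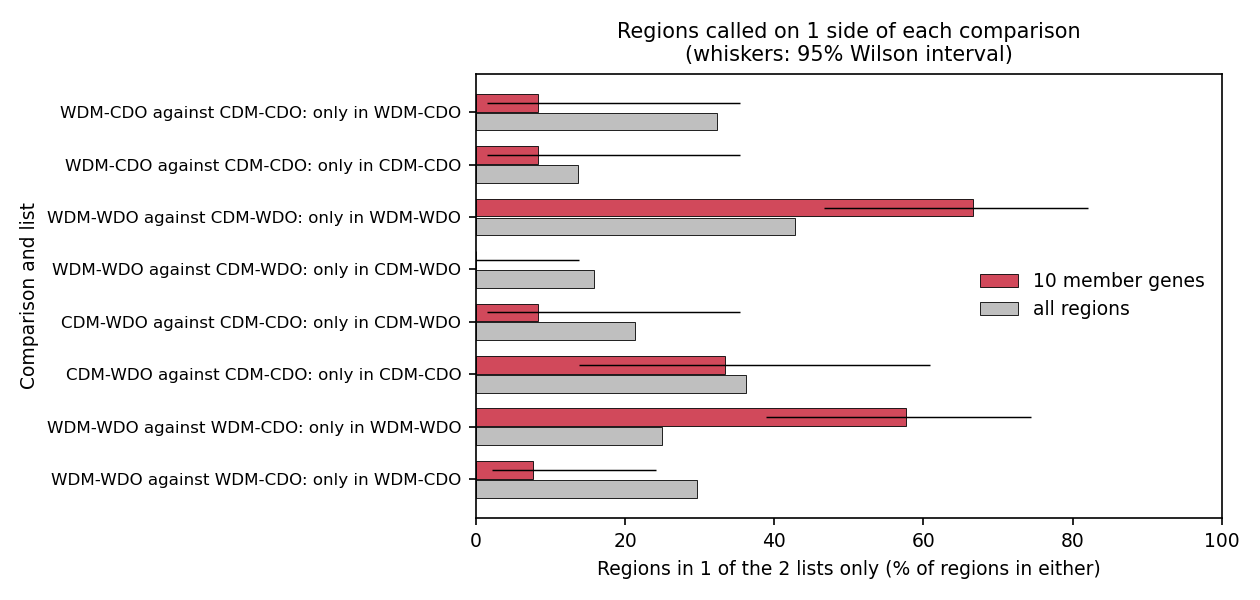
Share of regions called on 1 side of each comparison (horizontal, percent of regions in either list), for the 10 genes and for all regions. Whiskers are 95% Wilson intervals over regions, a counting error only. The members' bars exceed those of all regions for WDM-WDO only, at 66.7% and 57.7%.

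Because the lists differ in depth, heights were compared after scaling. Reads above the local background were divided by each list's median ratio to WDM-WDO over the strongest 10% of the 10351 regions called in all lists (1036 regions), which was 0.847 for CDM-CDO, 1.30 for WDM-CDO and 0.708 for CDM-WDO. Over those 10351 regions, the scaled WDM-WDO height divided by the median of the other 3 lists had a median of 1.05, and 0.613 and 1.87 were its 5th and 95th percentiles. For the 7 members' regions in all lists, the median of this ratio was 1.70. WDM-WDO was the highest list at 5 of the 7, against 35.0% of all shared regions, and had the widest peak at 5 of the 7, against 34.8%.

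Csf1r region 2 had scaled heights of 94.0 reads in WDM-WDO, 51.1 in CDM-WDO, 26.2 in WDM-CDO and 17.7 in CDM-CDO. The ratio of 3.58 was above that of 99.9% of shared regions. Both WDO lists were higher than both CDO lists at this region, and within each diet of the offspring the list with WDM mothers was the higher. Fcgr1 region 4 had the same order, at 59.7, 35.4, 18.9 and 14.6 scaled reads, with a ratio of 3.17, above 99.8% of shared regions. The scaled heights at Cd68 were 91.0 in WDM-WDO, 66.2 in CDM-WDO and 37.3 in both CDO lists, a ratio of 2.44, above 98.6%. At these 3 regions, then, CDM-WDO stood between the CDO lists and WDM-WDO.

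The remaining shared regions differed less. Itgam region 3 had scaled heights of 48.2 reads in WDM-WDO, 31.5 in CDM-WDO, 25.2 in WDM-CDO and 28.4 in CDM-CDO, a ratio of 1.70, above 92.7% of shared regions. Cd14 had 59.2, 42.1, 25.4 and 44.4 in that order, a ratio of 1.41, above 84.0%. WDM-CDO was the lowest list at Cd14, at 0.573 of CDM-CDO, below the 5th percentile of 0.637 for that pair of lists. Before scaling, its reads at Cd14 were 44 against 47, with overlapping 95% Poisson intervals (32.0 to 59.1 and 34.5 to 62.5). For the same pair, Csf1r region 2 went the other way, at 1.48, above the 95th percentile of 1.34. Fcgr1 region 1, with 64.1, 50.6, 75.2 and 65.2, and Mertk region 1, with 48.9, 56.5, 55.9 and 52.9, had ratios of 0.982 and 0.874, near the middle of all shared regions or below it. The regions shared by all lists therefore did not all follow 1 pattern.

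**Figure D3:**
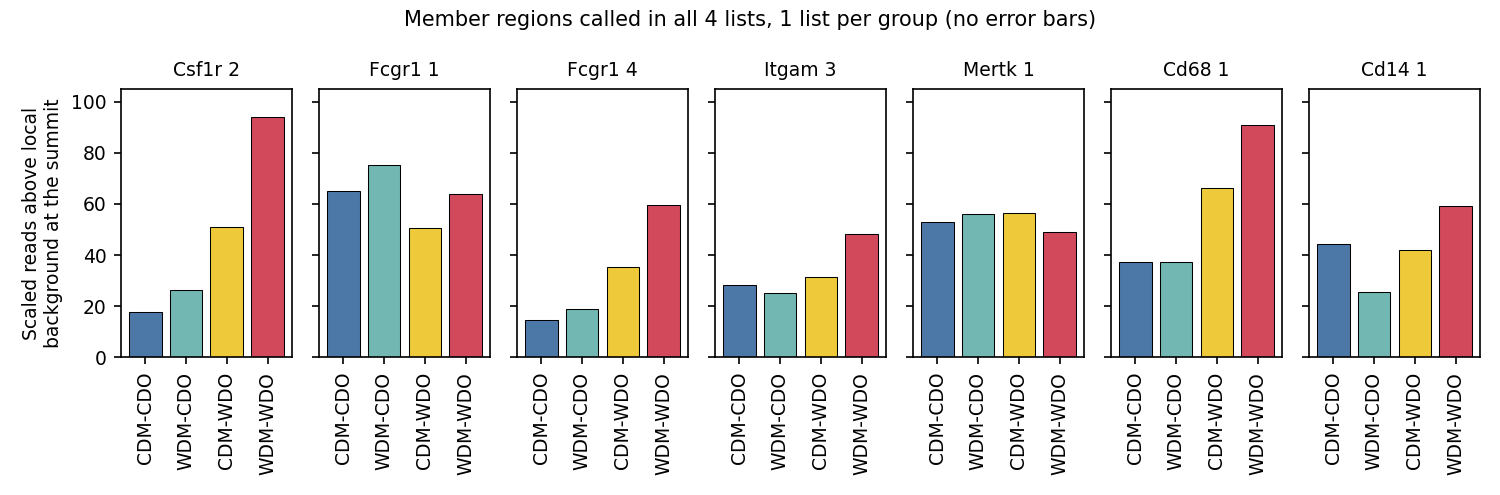
Scaled reads above local background at the 7 member regions called in all 4 lists, 1 value per list and so without error bars. WDM-WDO is highest at 5 of the 7, most clearly at Csf1r region 2 (94.0), Cd68 (91.0) and Fcgr1 region 4 (59.7).

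The missing calls were examined next. For each of the 14 regions called in WDM-WDO alone, the reads that the same scaled height would give in another list were set against the reads needed there for a call. In CDM-CDO and in WDM-CDO the expected reads reached the needed reads for 14 of 14, against 94.2% and 100% of all regions called in WDM-WDO alone. In CDM-WDO, the shortest list, they did so for 7 of 14, against 52.2%; with scaling over all shared regions it was 6 of 14, against 3109 of 7368. Those 7 were Csf1r region 1, Spi1 region 2, the Trem2 and C1qb regions, Itgam regions 1 and 7 and Mertk region 2. The expected and needed reads in CDM-WDO were 36.5 and 25 for Trem2, 38.2 and 28 for C1qb, 48.3 and 38 for Spi1 region 2, and 45.0 and 40 for Csf1r region 1. For the other 7, among them C1qa region 2 and the gene start of Itgam (25.9 expected, 26 needed), the expected reads fell short of a call in CDM-WDO, by margins within counting error, so a peak of equal height could have been missed there. Several regions that reached the needed reads also did so by margins within counting error. In CDM-CDO, expected and needed reads were 23.1 and 22 for C1qa region 2 and 15.8 and 15 for Itgam region 8. The margin was wider for C1qb, at 41.6 and 25. In CDM-WDO, Itgam region 7 had 17.6 and 17, and Mertk region 2 had 21.6 and 20. Reaching the needed reads thus does not exclude a missed call. The heights came from WDM-WDO, whose calls selected these regions. The 14 regions had a median of 28 reads (19 to 62) in WDM-WDO, against 25 for all 7368 regions called there alone.

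**Figure D4:**
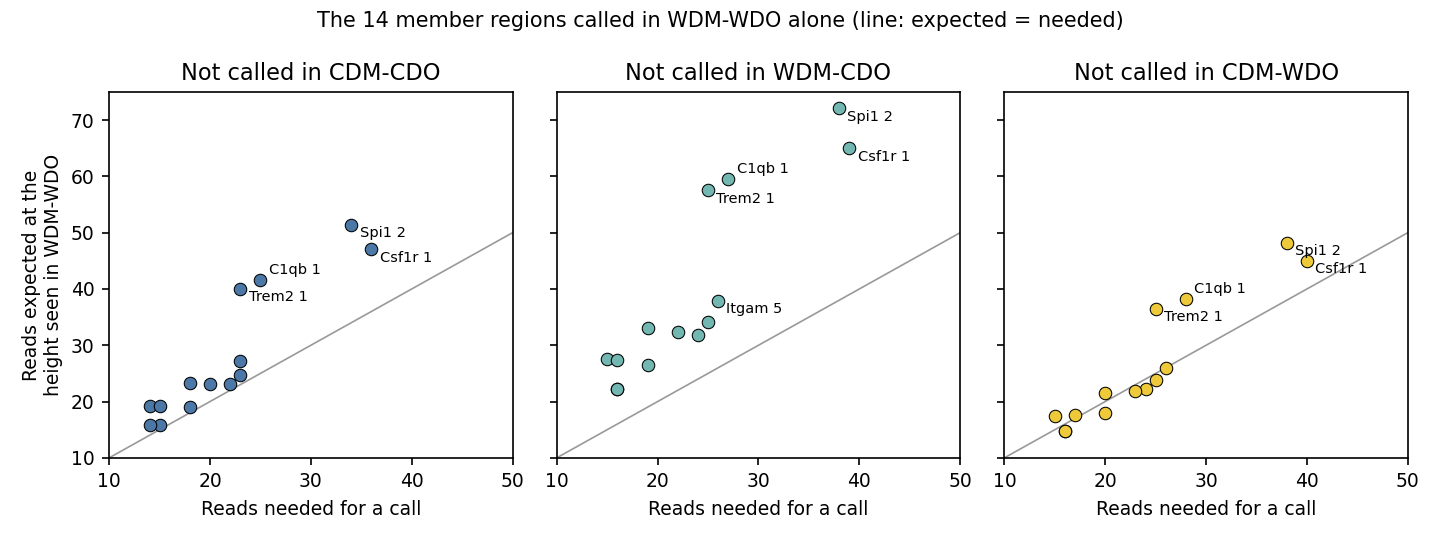
Reads expected at the height seen in WDM-WDO (vertical) against reads needed for a call (horizontal) for the 14 regions called in WDM-WDO alone, in each list without the call; the line marks equality. All 14 lie above the line in CDM-CDO and WDM-CDO, and 7 do in CDM-WDO.

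The regions called in WDM-WDO alone were also compared by position. Of the 14, 6 lay at a gene end (42.9%), against 8.98% of all regions called in WDM-WDO alone; of the 7 members' regions in all lists 3 did, against 67.2%. Local background was also high at some members. In WDM-WDO it was 5.26 times the genome background at Cd68, 4.11 times at Csf1r region 2, 3.95 times at Csf1r region 1 and 3.89 times at Spi1 region 1, above the 95th percentile of that list's peaks (3.73). At Cd68 it was above the 95th percentile in the other lists too, at 4.01 times in CDM-CDO, 4.54 in WDM-CDO and 3.31 in CDM-WDO. Regions of other genes within 100 kb of a member numbered 69. Of these, 11 were called in WDM-WDO alone (15.9%), and 17 of 57 (29.8%) were called with WDM-WDO and missed with CDM-WDO, both below the members' own shares. The 11 were unevenly spread. They lay near Spi1 (4 of 10 such regions), Trem2 (3 of 7), Cd68 (3 of 13) and Csf1r (1 of 5), and none lay near the other members. The nearest region outside the rule lay 1198 bp from Cd68, in Mpdu1, and was called in all 4 lists; that nearest to Trem2, at 28935 bp, was called in WDM-WDO alone.

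A list of 44 other macrophage and monocyte genes was set beside the members. A gene-end peak was found for 26 of them in WDM-WDO (59.1%, against 47.6% of all genes) and for 20 in WDM-CDO (45.5%, against 51.2%). CDM-WDO had 17 (38.6%, against 40.2%) and CDM-CDO 16 (36.4%, against 48.1%). Over all genes, 2.08% had such a peak in WDM-WDO alone and 37.0% in all 4 lists. The 6 with such a peak in WDM-WDO alone were Ncf1, a subunit gene of the phagocyte oxidase (−log10 q of 7.35), the Fc receptor genes Fcgr2b (6.49) and Fcgr4 (2.56), Adgre1, which encodes F4/80 (3.89), Siglec1 (3.13) and the interferon regulatory factor gene Irf5 (2.96). A gene-end peak in all 4 lists was found for 12; among them, in order of −log10 q in WDM-WDO, were Axl (97.6), Cebpa (57.6), Lgals3 (54.1), Csf2ra (53.2), Laptm5 (50.3), Runx1 (34.8), Sirpa (30.3), Csf1 (23.4) and Maf (13.9). Genes of the list that lacked a peak in WDM-WDO, named after their values were seen, were Ctss (−log10 q of 2.72) and Cd163 (3.51), with a gene-end peak in CDM-WDO alone, and Apoe, with one in both CDO lists (16.2 in CDM-CDO and 14.3 in WDM-CDO). Several of the genes open in all lists, such as Axl and Csf1, are also expressed by cells of the vessel wall. No gene-end peak in any list was found for 15. Of the 152 regions of these 44 genes, 49 (32.2%) were called in WDM-WDO alone, a share between that of the members (51.9%) and that of all regions (17.8%).

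Markers of other cells did not all follow the members. In the order CDM-CDO, WDM-CDO, CDM-WDO and WDM-WDO, gene-end peaks were found for 9, 9, 7 and 11 of 12 pan-leukocyte genes and for 0, 0, 1 and 4 of 12 neutrophil genes. T cell genes had 8, 9, 1 and 7 of 12 and B cell genes 5, 6, 2 and 5 of 12, with CDM-WDO lowest and WDM-WDO no higher than the CDO lists. Dendritic cell genes had 6, 6, 3 and 4 of 10. Endothelial genes had 7, 9, 6 and 6 of 20, smooth muscle genes 4, 4, 2 and 2 of 12, and fibroblast genes 2, 4, 2 and 2 of 12. Housekeeping genes had 20, 20, 17 and 18 of 20. Of all genes, 48.1, 51.2, 40.2 and 47.6% had a gene-end peak in that order. Endothelial (35, 45, 30 and 30%), neutrophil, B cell, smooth muscle and fibroblast genes lay below these shares in every list. Pan-leukocyte (75, 75, 58.3 and 91.7%) and housekeeping genes lay above them in every list, and T cell and dendritic cell genes on both sides. Of the regions of neutrophil genes, 6 of 12 (50%) were called in WDM-WDO alone. This share was 33.3% (7 of 21) for smooth muscle genes and 32.4% (12 of 37) for B cell genes. It was 17.9% for dendritic cell, 16.7% for pan-leukocyte, 16% for fibroblast, 13.3% for endothelial, 12.8% for T cell and 11.1% for housekeeping genes. A share above that of all regions (17.8%) was thus not particular to macrophage and monocyte genes. At regions called in all lists, the median ratio of scaled WDM-WDO height to the median of the other lists was 1.40 for the 44 macrophage and monocyte genes (31 regions), 1.56 for pan-leukocyte genes (18 regions), 0.999 for endothelial genes (9 regions) and 1.07 for housekeeping genes (23 regions). It was 0.903 for dendritic cell genes (9 regions), 0.720 for B cell genes (3 regions), 1.03 for T cell genes (1 region), 1.09 for smooth muscle genes (3 regions) and 1.46 for fibroblast genes (2 regions). WDM-WDO was the highest list at 13 of the 18 pan-leukocyte regions, and 4 of the 18 had a ratio above 1.87, the 95th percentile of all shared regions. The part of a changed mix of cells in the members' peaks was not tested.

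**Figure D5:**
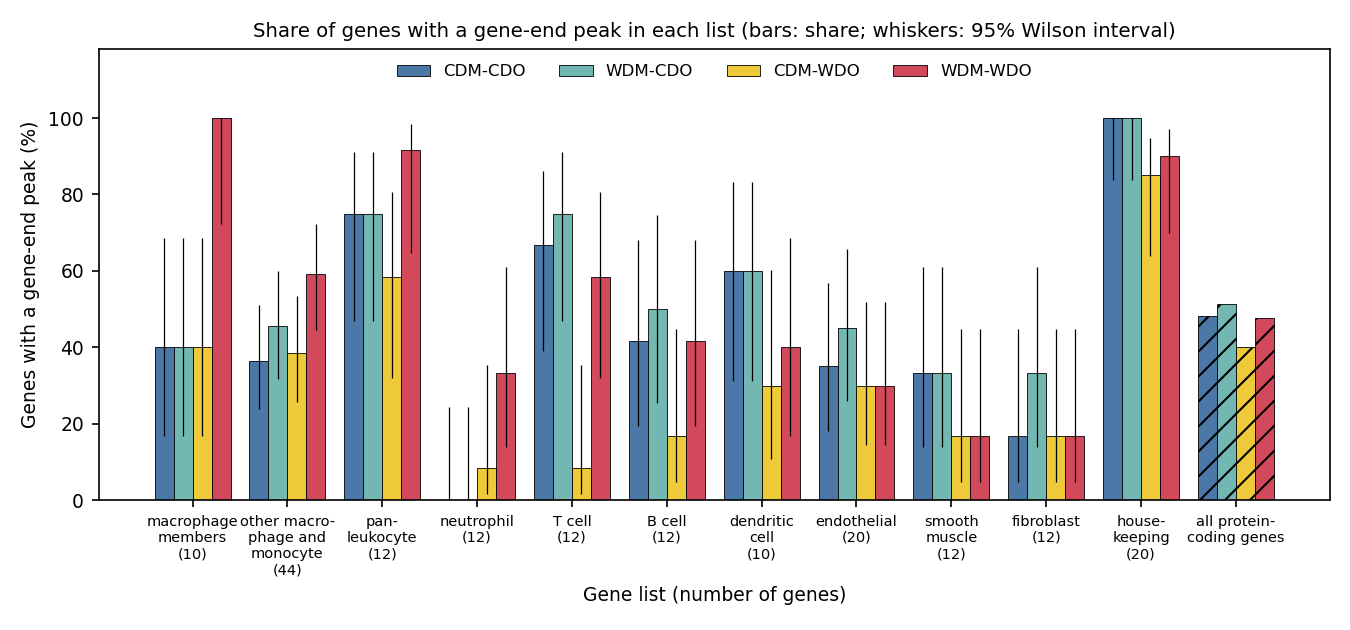
Share of genes with a gene-end peak (vertical, percent) in each of the 4 lists, for the 10 members, 10 other gene lists and all protein-coding genes; whiskers are 95% Wilson intervals over genes, a counting error only. The 10 members reach 10 of 10 in WDM-WDO, against 4 of 10 in the other lists.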

How the data were processed

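The ATAC-seq peak lists of 4 groups, named by the diet of mothers and offspring, were used as deposited, 1 per group; H3K27ac (4 samples) was not analysed here. Per the submitters' processing notes, the tools were MACS2 2.2.9.1, deepTools 3.5.4, Bowtie2 2.4.5, SAMtools 1.13, Trim Galore 0.6.10 and FastQC 0.12.1, with no order or settings, and the build was GRCm38 (mm10). Pooling of the 2 samples of a group and any shift of reads for the transposase are not given in the sources used here; either could change which peaks were called. Each peak's fold enrichment over local background, a ratio, is the value the authors deposited, as are its −log10 p and −log10 q. The whole-number score of each peak, also deposited by the authors, restates −log10 q and was not used.

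Read totals per sample were not used here. Reads at each summit were recovered from fold and −log10 p (Poisson tail, 1 read added to both in the fold), and for 100% of peaks a whole number fitted both values (relative tolerance 0.0001). Chromosome Y was left out. Regions overlapping by at least 1 bp were merged and assigned to the nearest of 21631 RefSeq gene spans of GRCm38.p6 within 100 kb; no region was tied. Promoters came from the RefSeq table of that build. Python 3.11.15 with numpy 2.4.6, pandas 2.3.3, scipy 1.17.1 and matplotlib 3.10.9 was used, and the scripts were tested on simulated data.

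With 1 list per group no test between groups was made. Members, gene lists and comparisons were chosen with earlier results of these data known. All members were named with every region; of the other macrophage and monocyte genes, those with a gene-end peak in WDM-WDO alone or in all 4 lists, at most 10 of each, by −log10 q; 1 of these is not reported here. Cdh5, Pecam1 and Ptprc served to check the label of the cells. Kdr, Tie1, Flt1 and Cd52 were added to that check after their values were seen. Alternatives changed the peak threshold, list length, merging, distance, end window and scaling.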

Additional observations from a re-analysis of the deposited data

Results flagged for a closer look

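C1qa, which encodes a chain of complement C1q, had counts of regions that differed in opposite directions between the lists of WDM and CDM mothers. The number of its regions in the list with WDM mothers minus that with CDM mothers was -1 with CDO offspring, where CDM-CDO had 1 and WDM-CDO had 0, and 1 with WDO offspring, where WDM-WDO had 1 and CDM-WDO had 0. The difference was not tested, since each group had 1 list. The 2 regions lie at opposite ends of the gene, and their −log10 q values of 2.92 and 2.15 are low; neither was called at a −log10 q of at least 5. At the height seen in WDM-WDO, region 2 would have 22.2 reads in CDM-WDO where 24 were needed for a call, so its absence there cannot be read as a difference.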

How the results depend on the processing

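Of 129 alternative values for 28 counts and heights, 111 stayed within 1.5 times the reported count or close to the reported height, and 18 moved. With only peaks of −log10 q of at least 5, member regions fell from 11 to 6 in CDM-CDO and from 24 to 14 in WDM-WDO, and those in WDM-WDO alone from 14 to 7 of 15 (46.7%, against 3094 of 22160 regions in all). In the same setting, regions in WDM-CDO and not CDM-CDO went from 1 to 2, in CDM-CDO and not WDM-CDO from 1 to 0, in WDM-WDO and not CDM-WDO from 16 to 7 of 14 (against 40.4% of all regions), in CDM-WDO and not CDM-CDO from 1 to 2, in CDM-CDO and not CDM-WDO from 4 to 1, in WDM-WDO and not WDM-CDO from 15 to 7, and in WDM-CDO and not WDM-WDO from 2 to 1. With all lists at equal length (18962 peaks), WDM-WDO alone held 8 of 20 (against 11.9% of all regions), WDM-WDO and not CDM-WDO 9 of 17 (against 29.2%), WDM-CDO and not CDM-CDO 2, CDM-CDO and not WDM-CDO 3, CDM-WDO and not CDM-CDO 3, and WDM-CDO and not WDM-WDO 1. With peaks shared only at a larger overlap, 0.5 of the shorter peak, both differences between the CDO lists were 2. Gene-end peaks of members were found for 3, 3, 3 and 8 of 10 at the stricter threshold (43.5, 47.1, 34.8 and 43.3% of all genes) and 4, 3, 4 and 8 at equal length (46.9, 47.7, 40.2 and 44.9%). No paired analysis was possible because each group had 1 list and the lists carry no replicate number; for the same reason no replicate could be left out. CDM-WDO, with the lowest median summit reads, limits what can be called absent there.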
